A study of Rattus norvegicus with 50 samples.

Results

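Livers of brain-injured rats that had received erythropoietin (EPO) were compared with livers of brain-injured rats that had received saline vehicle, at 72 h after the injury. The comparison was defined by the array titles and held 10 of the 50 arrays of the study, 5 of EPO livers and 5 of vehicle livers, 1 array per animal. All 10 animals were male Sprague Dawley rats of about 3 months with a controlled cortical impact, a contusion made on the exposed brain. The EPO animals received 2500 IU/kg of EPO and the vehicle animals saline, and RNA came from punches of the median lobe. The labels name neither the dosing schedule nor the hour of collection, and the injury was common to both groups. The other arrays came from EPO and vehicle livers at 24 h and 7 days, from livers of injured animals given anakinra (100 mg/kg), which blocks the receptor of interleukin-1, and from intact sham livers, again in groups of 5. The series title names liver drug-metabolising enzymes and transporters as the subject of the study.

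EPO is the hormone that keeps red cell precursors alive and dividing. It binds a receptor that signals through the kinase JAK2 and the transcription factor STAT5. In adult rodents red cells form mainly in bone marrow and spleen, and the liver is the organ of fetal red cell formation. The liver also makes hepcidin, the hormone that closes the iron exporter ferroportin. Hepcidin is held high by iron through bone morphogenetic protein (BMP) and SMAD signalling and by inflammation, and it is lowered when red cell formation expands.

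All values are log2 RMA values, so a difference of 1 is a doubling of signal, and every difference is EPO minus vehicle. A gene passed when its adjusted p was under 0.05 in limma, with Benjamini-Hochberg adjustment over the 14506 genes tested. The 6 hepatocyte markers examined (albumin and transthyretin among them) averaged 12.82 to 13.11 in the EPO arrays and 12.80 to 13.01 in the vehicle arrays, so the RNA was that of liver in both groups. The spread of values over all probes (SD) was 2.07 to 2.16 in the EPO arrays. EPO array 1 was the narrowest of its group and EPO array 4 the widest of the study. The part of this spread in the order of the EPO livers was not tested. In vehicle arrays 2 and 5, among the 5 narrowest of the study, the SD was 1.99 and 2.03, and in the other 3 vehicle arrays 2.11 to 2.12. The labels do not give the collection or hybridisation batches.

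At 72 h the difference between EPO and vehicle livers lay mainly in transcripts that were more abundant after EPO. Of 14506 genes 395 passed (2.72% of those tested), 316 higher (2.18%) and 79 lower (0.545%) in EPO livers. Among the genes that passed, 154 were at least 1.5-fold higher (1.06%) and 2 were at least 1.5-fold lower (0.0138%), the hepcidin gene Hamp and the secreted cerebellin gene Cbln3. The median difference of all genes was -0.03. In 244 genes (1.68%) the groups did not overlap, with 161 higher (1.11%) and 83 lower (0.572%) in every EPO array than in every vehicle array. The split of calls moved with the scaling and with single arrays. Higher calls were 80% of all calls here, 64.3% (258 higher, 143 lower) after all arrays were scaled to one spread and 94.0% (265 higher, 17 lower) without the narrow arrays. Without EPO array 1 there were 568 higher and 952 lower calls, and without vehicle array 2 there were 194 and 11.

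**Figure D1:**
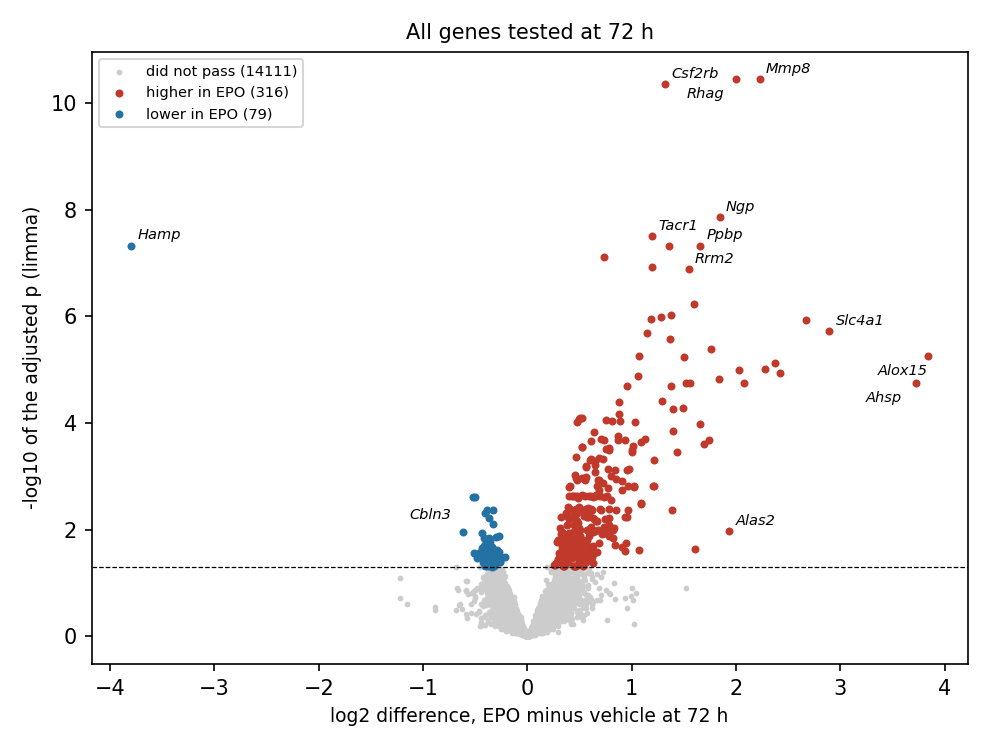
Each point is 1 of the 14506 genes, with the log2 difference (EPO minus vehicle at 72 h) on the horizontal axis and -log10 of limma's adjusted p on the vertical axis. The dashed line marks 0.05. The 316 higher genes reach a log2 difference of 3.84 (Alox15), whereas among the 79 lower genes Hamp (-3.80) stands alone and the rest lie between -0.61 and 0.

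Hamp had the largest fall. It read 7.60, 8.92, 7.07, 8.32 and 9.16 in EPO livers 1 to 5, against 12.89, 12.78, 11.55, 13.16 and 9.67 in vehicle livers 1 to 5. All 5 EPO livers lay below every vehicle liver, and vehicle liver 5 lay nearest to them, followed by vehicle liver 3. The difference was -3.80 (SE 0.44, adjusted p = 4.67e-08), 13.9-fold lower. Without any 1 of the 10 arrays it stayed between -4.38 and -3.51. EPO livers averaged 8.21 ± 0.88, against 12.01 ± 1.45 in vehicle livers, 12.13 ± 0.95 in anakinra livers at 72 h and 12.90 ± 0.16 in sham livers (mean ± SD, n = 5 each).

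The 300 bases around the RefSeq start of Hamp (250 before to 50 after, chr1:95300222-95300521, minus strand, build GRCr8) are shown because the gene fell most and because letters bound by BMP-responsive and STAT factors lie in them. The start regions of the red cell genes Alas2 (chrX:22895200-22895499, plus strand) and Rhd (chr5:152370950-152371249, plus strand) stand beside it. Capitals mark matches on either strand to AGATAA (letters of GATA factors), CCACACCC (letters of KLF1), TTCNNNGAA (letters of STAT factors such as STAT5) or GGCGCC (core of BMP response elements).
Hamp: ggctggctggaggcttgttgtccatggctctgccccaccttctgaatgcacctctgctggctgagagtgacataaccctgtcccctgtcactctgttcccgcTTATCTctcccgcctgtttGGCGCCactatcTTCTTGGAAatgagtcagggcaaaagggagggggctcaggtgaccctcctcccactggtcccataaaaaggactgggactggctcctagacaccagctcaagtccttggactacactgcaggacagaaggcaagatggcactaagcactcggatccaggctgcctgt
Alas2: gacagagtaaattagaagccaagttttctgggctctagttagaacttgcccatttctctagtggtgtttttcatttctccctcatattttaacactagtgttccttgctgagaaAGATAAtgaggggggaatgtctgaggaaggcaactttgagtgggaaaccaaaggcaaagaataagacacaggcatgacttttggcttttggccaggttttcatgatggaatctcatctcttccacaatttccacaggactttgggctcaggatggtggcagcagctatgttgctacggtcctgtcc
Rhd: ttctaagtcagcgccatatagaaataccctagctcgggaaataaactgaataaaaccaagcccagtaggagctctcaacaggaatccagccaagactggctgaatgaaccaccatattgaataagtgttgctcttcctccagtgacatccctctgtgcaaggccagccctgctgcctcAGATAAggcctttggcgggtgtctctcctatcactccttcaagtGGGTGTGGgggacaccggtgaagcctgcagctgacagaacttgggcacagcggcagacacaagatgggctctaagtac
In Hamp the AGATAA match (written TTATCT on this strand) began 148 bases, GGCGCC 129 bases and the TTCNNNGAA match 117 bases before the start. In Alas2 the AGATAA match began 136 bases before the start, and in Rhd AGATAA began 72 bases and the CCACACCC match (as GGGTGTGG) 28 bases before it. AGATAA was in 11.3% of the 27457 promoters of the table, CCACACCC in 3.23%, TTCNNNGAA in 8.68% and GGCGCC in 11.8%. Of the 26 erythroid genes of the lists below that passed, 18 were in the table. AGATAA was in 5 of these (Add2, Alas2, Fech, Rhd and Sptb), CCACACCC in 2 (Add2 and Rhd), TTCNNNGAA in 1 (Gfi1b) and GGCGCC in 7. Both red cell genes shown are thus among the 5 with AGATAA. The start regions of Rhag and Epb42 held 0 matches, and that of Hemgn held GGCGCC alone. The motifs do not overlap one another in the sequences shown, and a match is a description of letters only.

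Besides Hamp, 3 iron-handling genes passed. Of 26 measured 3 rose and Hamp alone fell (15.4% passed, against 2.72% of all genes), and the list's median was 0.04. Tfrc, the transferrin receptor that brings iron into dividing and hemoglobin-making cells, read 9.48, 9.71, 10.23, 10.03 and 9.25 in EPO livers 1 to 5, against 8.45, 8.85, 9.56, 8.65 and 8.41 in vehicle livers 1 to 5. EPO livers were higher by 0.96 (SE 0.22, adjusted p = 0.00578), but vehicle liver 3 lay above EPO livers 1 and 5. Without the narrow arrays Tfrc had an adjusted p of 0.0543. Hmox1, heme oxygenase, which frees iron from heme, rose by 0.84 (SE 0.16, adjusted p = 0.000752) with no overlap of the groups. Ncoa4, the receptor that takes ferritin to lysosomes, rose by 0.68 (SE 0.14, adjusted p = 0.00181), a call lost after scaling to one spread. With only the groups compared in limma, 0 of these genes rose (adjusted p = 0.0973 for Tfrc, 0.0743 for Hmox1 and 0.207 for Ncoa4). Slc40a1, ferroportin, had a difference of 0.25 (SE 0.12, adjusted p = 0.214) and Tfr2, the hepatocyte's sensor of transferrin, one of 0.04 (SE 0.09, adjusted p = 0.813). The ferritin gene Fth1 differed by 0.11 and transferrin, Tf, by 0.01, with adjusted p of 0.362 and 0.932.

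Genes of the BMP-SMAD pathway, which acts upstream of Hamp, did not pass, apart from Id2. Of 24 measured 0 rose and 1 fell (4.17% passed, against 2.72% of all genes), with a median of -0.05. An unadjusted p under 0.05 was found in 4 of the 24, all lower, and in 20% of all genes, in either direction. The gene that fell was Id2, an inhibitor of basic helix-loop-helix factors, with 10.27, 10.82, 10.78, 10.49 and 10.75 in the EPO livers, against 11.37, 10.82, 11.01, 11.22 and 11.07 in the vehicle livers. All EPO livers lay below every vehicle liver, with EPO liver 2 and vehicle liver 2 touching, and the difference was -0.48 (SE 0.13, adjusted p = 0.0341). The call was lost in 5 of the 10 fits that left out 1 array. Id1, the usual readout of BMP signalling in hepatocytes, read 6.67, 6.73, 6.61, 6.78 and 6.52 in the EPO livers, against 6.65, 6.702, 6.63, 6.71 and 6.62 in the vehicle livers, a difference of 0.00 (SE 0.08, adjusted p = 0.999, 95% interval -0.16 to 0.16). Smad7, the feedback inhibitor of the pathway, differed by -0.33 (adjusted p = 0.104) and Bmp6, the ligand made by liver endothelium, by -0.03 (adjusted p = 0.918). Erfe, the red cell precursor hormone that lowers hepcidin, was not measured.

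The red cell membrane and globin lists had the highest medians of the 31 lists. Among red cell membrane and skeleton genes 10 of 17 measured rose and 0 fell, with a median difference of 0.71. Of the 14 measured globins, globin chaperone and red cell enzymes 6 rose and 0 fell, with a median of 1.00. For heme synthesis 4 of 12 rose and 0 fell, and for erythroid regulators and organelle clearance 6 of 19 rose and 0 fell. In the order named, 58.8%, 42.9%, 33.3% and 31.6% of the measured members passed, against 2.72% of all genes. The heme count was 2 without vehicle array 2 or without EPO array 4. With only the groups compared in limma, 7 membrane, 5 globin-list, 1 heme synthesis and 1 erythroid regulator gene rose. In liver RNA, more cells of a type and more RNA per cell cannot be told apart.

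Alox15, a lipoxygenase that helps maturing red cells lose their organelles, read 12.27, 12.91, 13.16, 13.32 and 11.97 in EPO livers 1 to 5, against 7.88, 6.80, 10.75, 8.86 and 10.15 in vehicle livers 1 to 5. The 2 groups did not overlap, vehicle livers 3 and 5 were the highest of their group and EPO livers 5 and 1 the lowest of theirs. The difference was 3.84 (SE 0.55, adjusted p = 5.61e-06). Ahsp, the chaperone that keeps free alpha globin soluble, read 9.50, 11.02, 11.31, 11.59 and 10.27 in EPO livers 1 to 5, against 5.46, 5.65, 8.56, 7.16 and 8.23 in vehicle livers 1 to 5, a difference of 3.73 (SE 0.57, adjusted p = 1.77e-05). Slc4a1, the chloride-bicarbonate exchanger also called band 3, read 10.06, 10.97, 11.28, 11.72 and 10.05 in EPO livers 1 to 5, against 7.11, 6.65, 9.23, 7.83 and 8.78 in vehicle livers 1 to 5 and was higher by 2.89 (SE 0.39, adjusted p = 1.9e-06). In all 3 genes EPO liver 4 was highest, vehicle livers 3 and 5 led their group, and no vehicle liver reached an EPO liver. The same vehicle livers 3 and 5 had the lowest Hamp values of their group. In the EPO livers the order was mixed. EPO liver 5 had the highest Hamp and the lowest Alox15 and Slc4a1. EPO liver 3 had the lowest Hamp and came next below EPO liver 4 for all 3 red cell genes. Against this order, EPO liver 4 lay above EPO livers 1 and 3 for Hamp, and EPO liver 1 was the lowest for Ahsp.

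Rhag, which carries the Rh blood group complex in the membrane, read 6.54, 6.55, 7.50, 8.14 and 7.30 in EPO livers 1 to 5, against 4.99, 5.09, 5.42, 5.02 and 5.49 in vehicle livers 1 to 5. All EPO livers lay above all vehicle livers, EPO liver 4 was highest, and the difference was 2.002 (SE 0.17, adjusted p = 3.55e-11). Its partner Rhd was higher by 2.42 (SE 0.36, adjusted p = 1.14e-05). Of the membrane skeleton, Epb42 (band 4.2) was higher by 1.76, Sptb (beta spectrin) by 1.56, Add2 (beta adducin) by 1.39, Epb41 (band 4.1) by 1.15 and Ank1 (ankyrin, which ties spectrin to band 3) by 1.07. All 5 passed, with adjusted p between 2.02e-06 (Epb41) and 5.42e-05 (Add2).

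**Figure D2:**
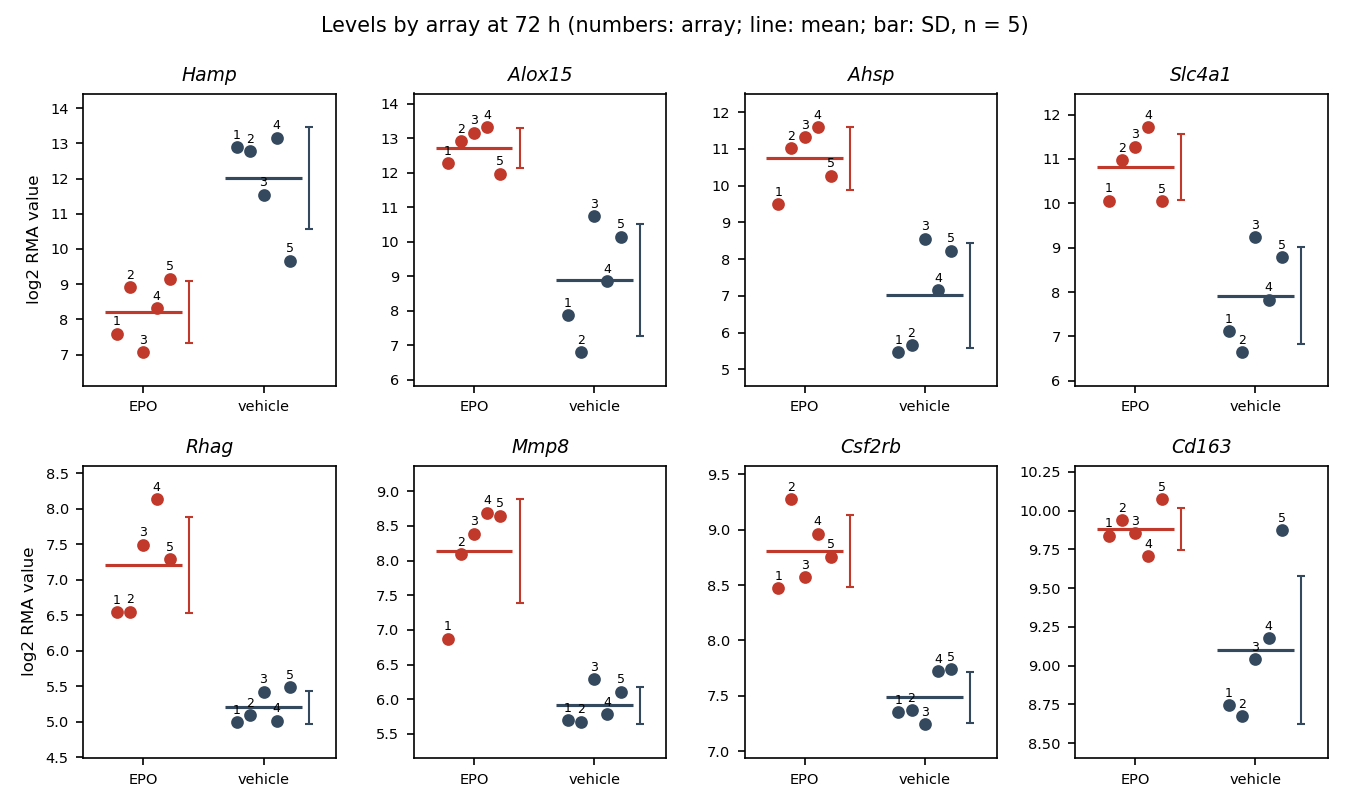
Log2 RMA values of 8 genes in the 5 EPO livers (red, left in each panel) and the 5 vehicle livers (dark, right) at 72 h, with array numbers beside the points, a line at the mean and a bar for the SD (n = 5). The groups do not overlap except for Cd163, whose vehicle array 5 (9.87) lies among the EPO arrays.

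Among the enzymes, Car2 (carbonic anhydrase 2) read 8.96, 9.96, 10.65, 10.99 and 9.58 in the EPO livers, against 7.86, 7.05, 8.51, 8.36 and 8.24 in the vehicle livers, and was higher by 2.03 (SE 0.30, adjusted p = 1.02e-05) with no overlap. Car1, its relative in red cells, was higher by 1.40, Bpgm, which makes the 2,3-bisphosphoglycerate that loosens oxygen from hemoglobin, by 1.07 and Prdx2, a peroxide scavenger abundant in red cells, by 1.06, and all 3 passed. The globin genes themselves did not pass. Hbb read 13.02, 13.45, 13.61, 13.94 and 13.00 in EPO livers 1 to 5, against 12.37, 11.75, 13.04, 12.98 and 12.98 in vehicle livers 1 to 5, with EPO liver 4 highest, vehicle liver 2 lowest and the groups overlapping, a difference of 0.78 (SE 0.31, adjusted p = 0.157, 95% interval 0.15 to 1.41). Hba-a3 differed by 1.00 (SE 0.42, adjusted p = 0.178, 95% interval 0.16 to 1.83). Hbb lay near the top of the scale of these arrays, and the probes of near-identical globin genes can share targets.

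Of the heme pathway, the erythroid first enzyme Alas2 read 10.52, 11.85, 12.08, 12.36 and 10.75 in EPO livers 1 to 5, against 8.73, 8.38, 10.43, 10.05 and 10.28 in vehicle livers 1 to 5. EPO livers were higher by 1.94 (SE 0.47, adjusted p = 0.0106), every EPO liver lay above every vehicle liver, and vehicle livers 1 and 2 lay lowest. The adjusted p of Alas2 was 0.102 with array weights and up to 0.0831 when 1 array was left out. Slc25a37, mitoferrin, which brings iron into the mitochondria of red cell precursors, rose by 1.36 (SE 0.16, adjusted p = 4.67e-08) and Fech, which inserts the iron, by 0.95 (SE 0.18, adjusted p = 0.000775). Urod, an intermediate enzyme, rose by 0.35 (adjusted p = 0.0477) and lost the call in 7 of the 10 fits that left out 1 array. Hemgn, found in the nuclei of red cell precursors, read 8.26, 9.48, 10.11, 10.24 and 9.07 in the EPO livers, against 6.44, 6.57, 7.74, 7.13 and 7.87 in the vehicle livers, with no overlap and a difference of 2.28 (SE 0.33, adjusted p = 9.49e-06). Klf1, the master activator of adult globin and membrane genes, rose by 0.85 (SE 0.19, adjusted p = 0.0042), Gata1, the lineage-defining GATA factor, by 0.50 (SE 0.13, adjusted p = 0.0155) and Bnip3l, which clears mitochondria, by 0.56 (SE 0.11, adjusted p = 0.000662). The Gata1 call was lost without EPO array 4 (adjusted p = 0.105), and the Bnip3l call after scaling to one spread (adjusted p = 0.591). With only the groups compared in limma, Slc25a37 and Hemgn passed (adjusted p = 0.012 and 0.0141). Fech (0.162), Klf1 (0.255), Alas2, Urod, Gata1 and Bnip3l did not pass in that fit.

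The mean of the membrane and skeleton list was 8.15, 8.57, 8.82, 9.25 and 8.28 in EPO livers 1 to 5, against 7.57, 7.46, 7.81, 7.53 and 7.84 in vehicle livers 1 to 5. EPO liver 4 stood highest, EPO livers 1 and 5 lowest of their group, and the lowest EPO liver (8.15) lay above the highest vehicle liver (7.84). Sham livers had list means of 7.37 to 7.65 and anakinra livers at 72 h of 7.40 to 7.99.

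The list of EPO receptor, JAK2 and STAT5 signalling genes also holds receptor chains of other cytokines, such as Csf2rb. Of 21 measured 2 rose and 0 fell (9.52% passed, against 2.72% of all genes), with a median of 0.19. Csf2rb, the common beta chain of the interleukin-3, interleukin-5 and GM-CSF receptors, read 8.47, 9.28, 8.57, 8.96 and 8.76 in EPO livers 1 to 5, against 7.35, 7.37, 7.24, 7.72 and 7.74 in vehicle livers 1 to 5. It was higher by 1.32 (SE 0.12, adjusted p = 4.39e-11) with no overlap of the groups. Pim1, a survival kinase induced by STAT5, was higher by 0.77 (SE 0.16, adjusted p = 0.00164), also without overlap. Cish, a STAT5 target that damps EPO receptor signalling, read 9.48, 8.89, 8.12, 7.87 and 9.20 in the EPO livers, against 7.16, 8.05, 7.22, 9.67 and 7.64 in the vehicle livers. Vehicle liver 4 held the highest value of all 10, the groups overlapped, and the difference of 0.76 did not pass (adjusted p = 0.488, 95% interval -0.49 to 2.02). Socs2, another STAT5 target, differed by 0.15 (adjusted p = 0.875). Epor, the receptor, read 7.26, 7.29, 7.23, 7.14 and 7.23 in the EPO livers, against 7.37, 7.57, 7.29, 7.33 and 7.54 in the vehicle livers. All EPO livers lay just below every vehicle liver, and the difference of -0.19 did not pass (adjusted p = 0.17).

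Platelet-lineage transcripts were higher too. Of 9 measured megakaryocyte and platelet markers 6 rose and 0 fell (66.7% passed, against 2.72% of all genes), with a median of 0.56. Ppbp, a platelet alpha-granule chemokine, read 7.47, 9.22, 8.92, 8.51 and 7.76 in EPO livers 1 to 5, against 6.49, 6.89, 6.46, 6.89 and 6.85 in vehicle livers 1 to 5. It was higher by 1.66 (SE 0.19, adjusted p = 4.67e-08) with no overlap. Pf4, which adjoins Ppbp in the genome and is also an alpha-granule chemokine, was higher by 0.74, Gp1ba, the von Willebrand factor receptor, by 0.70 and P2ry12, the ADP receptor, by 0.56. Itgb3, the integrin beta 3 chain, read 9.13, 9.39, 9.27, 9.18 and 9.24 in the EPO livers, against 8.66, 8.68, 8.67, 8.83 and 8.86 in the vehicle livers, a difference of 0.50 (SE 0.08, adjusted p = 8.07e-05) with no overlap, whose call was lost after scaling to one spread. Gp9 differed by -0.06 (adjusted p = 0.714) and did not pass. EPO liver 2 was highest for Ppbp and EPO liver 4 for Pf4.

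Many Kupffer cell and macrophage transcripts were higher, with 12 of 27 measured genes risen, 0 fallen and a median of 0.49. The share that passed was 44.4%, against 2.72% of all genes. Kupffer cells are the resident macrophages of the liver that clear old red cells and recycle their iron. Cd163, the scavenger receptor for hemoglobin bound to haptoglobin, read 9.84, 9.94, 9.86, 9.71 and 10.07 in EPO livers 1 to 5, against 8.74, 8.67, 9.04, 9.18 and 9.87 in vehicle livers 1 to 5. The EPO livers lay close together, whereas vehicle livers 1 and 2 were low and vehicle liver 5 reached the EPO range. The difference was 0.78 (SE 0.14, adjusted p = 0.000294). Vsig4, a complement receptor of Kupffer cells, was higher by 0.76 (SE 0.16, adjusted p = 0.00233), Mrc1, the mannose receptor, by 0.61 (SE 0.14, adjusted p = 0.00424) and Lgals3, galectin 3, by 0.94 (SE 0.21, adjusted p = 0.00578). The 6 genes used as Kupffer cell markers (Cd163, Vsig4, Clec4f, Marco, Cd5l and Csf1r) all rose. Of the whole list 15 genes did not pass, and Spic, the lowest, differed by -0.32.

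The number of Kupffer calls moved with single livers. The list mean was 8.68, 8.95, 8.67, 8.92 and 8.74 in EPO livers 1 to 5, against 8.14, 8.03, 8.16, 8.59 and 8.63 in vehicle livers 1 to 5. Vehicle livers 4 and 5 lay near the EPO livers and vehicle livers 1 to 3 further below. The number of Kupffer genes that rose was 4 without vehicle array 2 or after scaling to one spread, 6 without vehicle array 1 or without EPO array 2, and 19 without vehicle array 4. It was 0 when limma used only the 2 groups compared, against 12 in the fit of all 50 arrays. At an unadjusted p under 0.05 in the fit of all 50 arrays, 23 were higher and 1 (Spic) lower. Of all genes 20% had such a p, in either direction. Sham livers had list means of 8.27 to 8.65 and anakinra livers at 72 h of 8.16 to 8.69, so that the highest anakinra liver lay above the lowest EPO liver. The calls of Cd163, Vsig4 and Mrc1 were lost after scaling to one spread, and that of Lgals3 without vehicle array 2.

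Neutrophil granule and surface genes were divided. Of 23 measured, 7 rose and 0 fell (30.4% passed, against 2.72% of all genes), and the median was 0.17. Mmp8, the neutrophil collagenase, read 6.87, 8.09, 8.39, 8.69 and 8.65 in EPO livers 1 to 5, against 5.70, 5.68, 6.29, 5.79 and 6.11 in vehicle livers 1 to 5. EPO liver 1 was lowest of its group but still above every vehicle liver, and the difference was 2.23 (SE 0.20, adjusted p = 3.55e-11). Ngp, the neutrophilic granule protein, was higher by 1.84 (SE 0.20, adjusted p = 1.36e-08) without overlap. S100a9, a subunit of calprotectin, was higher by 1.37 (SE 0.19, adjusted p = 2.67e-06). Its partner S100a8, whose gene lies next to it, was higher by 0.71 (SE 0.12, adjusted p = 0.000198) at low signal (3.56 to 4.92 in EPO livers, 3.52 to 3.81 in vehicle livers). Retnlg, a resistin-like protein of neutrophils, rose by 1.09 and Cxcr2, the chemokine receptor that brings neutrophils out of marrow, by 0.81. Among the granule genes that did not pass, Mpo, myeloperoxidase, differed by -0.27 (adjusted p = 0.189), Elane, neutrophil elastase, by -0.20 (adjusted p = 0.374) and Ltf, lactoferrin, by -0.19 (adjusted p = 0.273). Of the 23 genes 10 had a mean level under 6, in the lower part of the scale.

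Cxcr1, the neighbour of Cxcr2, went the other way, with 5.47, 5.59, 5.39, 5.35 and 5.48 in the EPO livers, against 5.77, 6.20, 5.73, 5.63 and 6.28 in the vehicle livers. Both groups were dim, all EPO livers lay below every vehicle liver, vehicle livers 2 and 5 were the highest, and the difference of -0.47 (SE 0.13, adjusted p = 0.0276) was lost in 5 of the 10 fits that left out 1 array.

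Of 15 mast cell, basophil and eosinophil genes 3 rose and 0 fell (20% passed, against 2.72% of all genes), with a median of 0.00. Of the 15 genes 11 had a mean level under 6. Mcpt8, a protease of basophils in mice, read 4.81, 4.98, 4.69, 6.05 and 7.04 in EPO livers 1 to 5, against 4.63, 4.65, 4.73, 4.61 and 4.74 in vehicle livers 1 to 5. EPO livers 4 and 5 carried the difference, the other 3 EPO livers lay in or near the vehicle range, and the difference was 0.84 (SE 0.22, adjusted p = 0.0197). Prg2, the major basic protein of eosinophil granules, differed by 0.65 (SE 0.16, adjusted p = 0.0106) and the mast cell protease gene Mcpt10 by 0.68 (SE 0.16, adjusted p = 0.0103). Without EPO array 5 none of the 15 passed in limma, and 1 passed without EPO array 4 or without the narrow arrays. With only the groups compared, or among genes with a mean level of at least 6, 0 passed.

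T, B and NK cell markers rose in 3 of 26 (11.5%, against 2.72% of all genes passed), with 0 fallen and a median of 0.02. Il7r, the interleukin-7 receptor, read 6.36, 7.19, 7.12, 7.08 and 7.52 in the EPO livers, against 5.81, 5.67, 5.89, 6.12 and 6.95 in the vehicle livers, with vehicle liver 5 above EPO liver 1 and a difference of 0.97 (SE 0.21, adjusted p = 0.00424). Gzma, granzyme A, was higher by 0.61 and Nkg7, a granule membrane protein, by 0.53, and they lost the call in 5 (Gzma) and 6 (Nkg7) of the 10 fits that left out 1 array. The list count was 1 without any one of vehicle arrays 1 and 2 and EPO arrays 2, 3 and 4. Cd3e, the T cell receptor chain, differed by -0.20 (adjusted p = 0.224).

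Some genes of cell division were higher. Mitosis genes rose in 11 of 31, with 0 fallen and a median of 0.27. DNA replication genes rose in 3 of 27, with 0 fallen and a median of 0.16. The shares that passed were 35.5% and 11.1%, against 2.72% of all genes. Rrm2, the regulated subunit of ribonucleotide reductase, read 6.83, 7.17, 7.61, 7.86 and 7.90 in EPO livers 1 to 5, against 5.63, 5.79, 5.83, 5.95 and 6.44 in vehicle livers 1 to 5. The groups did not overlap, vehicle liver 5 was the highest of its group, and the difference was 1.55 (SE 0.19, adjusted p = 1.29e-07). Cdkn3, a cell cycle phosphatase, was higher by 0.91 (SE 0.18, adjusted p = 0.00123), Nusap1, a spindle protein, by 0.61 (SE 0.13, adjusted p = 0.00411), Ccna2, cyclin A2, by 0.53 (SE 0.11, adjusted p = 0.00228) and Kif11, a spindle motor, by 0.47 (SE 0.09, adjusted p = 0.00107). Of the 31 mitosis genes 24 had a mean level under 6, so these were small differences at low signal.

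The levels of division genes in EPO and sham livers overlapped. The mitosis list mean was 5.59, 5.67, 5.64, 5.85 and 6.03 in EPO livers 1 to 5, against 5.35, 5.43, 5.31, 5.42 and 5.75 in vehicle livers 1 to 5, with EPO liver 5 and vehicle liver 5 highest of their groups, and sham livers had means of 5.44 to 5.81. Rrm2 was 0.60 above sham livers (adjusted p = 0.0576) and Cdkn3 0.10 above them (adjusted p = 0.893), whereas against anakinra livers at 72 h the differences were 1.58 (adjusted p = 7.95e-08) and 0.86 (adjusted p = 0.00261). The number of mitosis genes that passed was 6 without vehicle array 1, 7 without vehicle array 2 or without EPO array 5, and 17 after scaling to one spread. For the replication list it was 1 without any one of vehicle arrays 1 and 3 and EPO arrays 2 and 4, 6 without EPO array 1 and 5 after scaling. When limma used only the groups compared, 1 mitosis gene and 1 replication gene passed. Among genes with a mean level of at least 6, 1 mitosis gene passed.

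**Figure D3:**
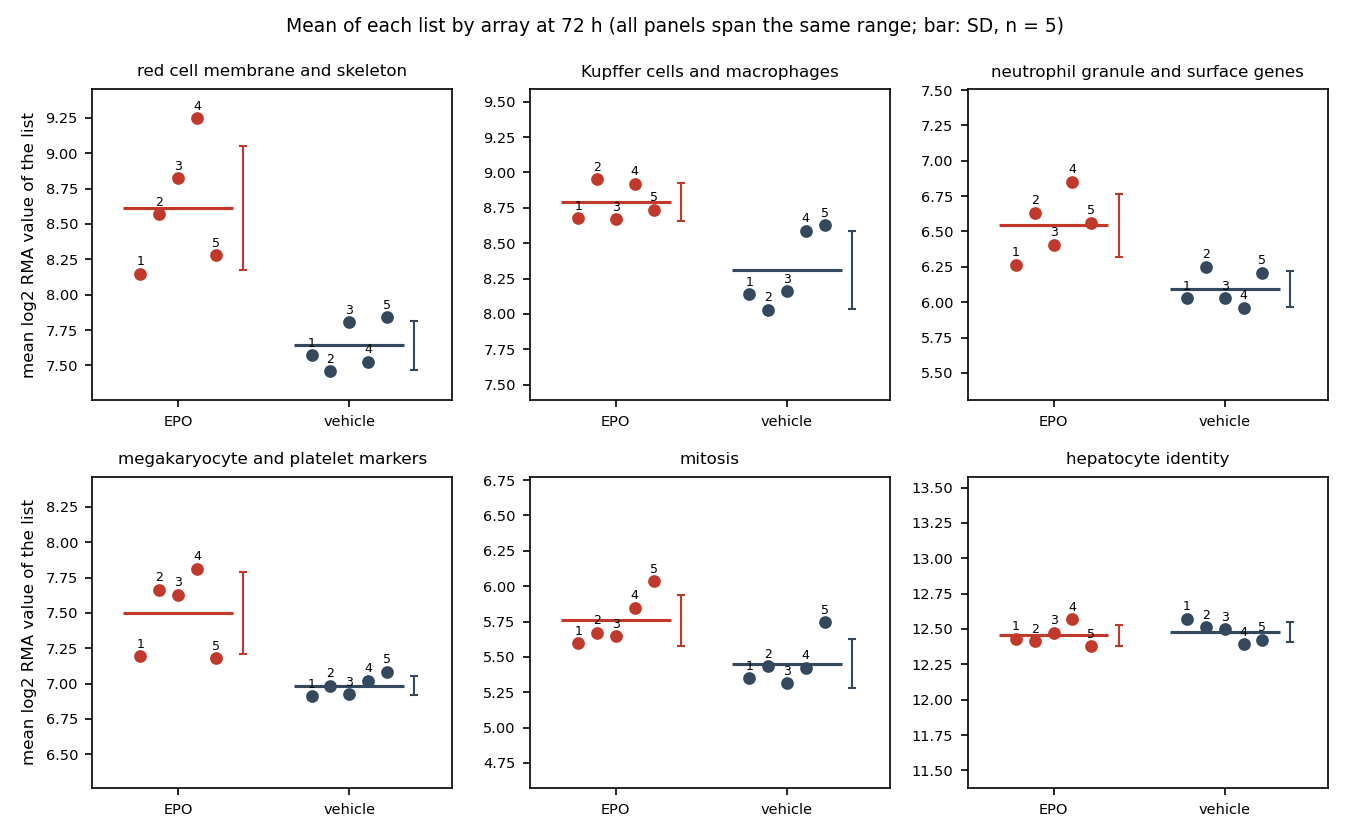
Mean log2 RMA value of 6 gene lists in each EPO liver (red, left) and vehicle liver (dark, right) at 72 h, with array numbers, a line at the group mean and a bar for the SD (n = 5). All panels span the same log2 range. EPO array 4 is highest for red cell genes (9.25), vehicle arrays 4 and 5 approach the EPO arrays for Kupffer genes (8.59 and 8.63), and the hepatocyte values of both groups overlap (12.38 to 12.57 in EPO and 12.39 to 12.57 in vehicle arrays).

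Of other liver cell types, endothelial genes rose in 4 of 20 (20%, against 2.72% of all genes passed) with a median of 0.22. Tie1, an endothelial receptor kinase, read 8.52, 8.48, 8.53, 8.45 and 8.37 in the EPO livers, against 8.15, 8.10, 7.99, 8.13 and 7.83 in the vehicle livers, without overlap and with a difference of 0.42 (SE 0.09, adjusted p = 0.00238). Oit3, of liver sinusoidal endothelium, was higher by 0.47, Fcgr2b, the sinusoidal Fc receptor, by 0.46 and Flt4, the VEGF receptor 3, by 0.37. Of the 10 fits that left out 1 array, the call was lost in 7 for Fcgr2b, 5 for Flt4 and 1 for Oit3. The endothelial count was 1 without vehicle array 2 or after scaling to one spread, and 2 without any one of vehicle arrays 1 and 3 and EPO arrays 2 and 5. Of 16 stellate cell and matrix genes Hgf alone rose (6.25% passed), with 2 higher without EPO array 1, EPO array 5 or vehicle array 4. Hgf, the hepatocyte growth factor made by non-parenchymal cells, read 8.93, 9.28, 8.96, 9.11 and 9.32 in the EPO livers, against 8.35, 8.29, 8.44, 8.58 and 8.75 in the vehicle livers, again without overlap, a difference of 0.64 (SE 0.11, adjusted p = 0.000147).

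Hepatocyte genes did not pass. Of 20 hepatocyte identity genes 0 rose and 0 fell (2 at an unadjusted p under 0.05), and the list mean was 12.38 to 12.57 in EPO livers, against 12.39 to 12.57 in vehicle livers and 12.49 to 12.61 in sham livers. After scaling to one spread 1 of the 20 was lower. Of the 39 measured genes of P450 families 1 to 3, the main oxidases of drugs, 0 rose and 0 fell in limma, 6 had an unadjusted p under 0.05, and the median was -0.08. Without EPO array 1 there were 4 lower and 1 higher P450 genes, without vehicle array 4 there were 2 lower, and 1 was lower without vehicle array 3, without vehicle array 5 or after scaling to one spread. Over all genes 2908 of 14506 (20%) had an unadjusted p under 0.05.

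Several abundant P450 genes had narrow intervals around 0. Cyp2c11, the male-specific steroid hydroxylase, read 13.14, 13.12, 13.14, 13.06 and 13.17 in the EPO livers, against 13.06, 13.20, 13.15, 13.16 and 13.09 in the vehicle livers, a difference of -0.01 (95% interval -0.12 to 0.11). Cyp3a2, the male-predominant CYP3A enzyme, differed by 0.04 (-0.12 to 0.20), Cyp2e1, the ethanol-inducible enzyme, by -0.02 (-0.18 to 0.14) and Cyp1a2, the caffeine oxidase, by -0.13 (-0.28 to 0.03). These intervals cover changes of at most 0.28 in either direction. Like Hbb, Cyp2c11 lay near the top of the scale of these arrays, which limits what its narrow interval can show. Cyp2b1, the phenobarbital-inducible enzyme, was far less certain, with 8.98, 6.88, 9.14, 9.22 and 8.18 in the EPO livers, against 9.06, 7.42, 8.56, 8.35 and 6.93 in the vehicle livers. EPO liver 2 and vehicle liver 5 were the lowest, both groups spanned over 2 log2 units, and the interval of the difference (0.42) was -0.47 to 1.30.

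Cyp3a23-3a1, a CYP3A gene induced through the pregnane X receptor, read 12.06, 11.30, 12.11, 11.88 and 11.96 in the EPO livers, against 12, 12.01, 12.39, 12.17 and 11.78 in the vehicle livers, and EPO liver 2 was the lowest. Its difference was -0.21 (adjusted p = 0.419, interval -0.51 to 0.09). The same EPO liver 2 was lowest for Slco1a4, an organic anion uptake transporter, with 11.14, 9.51, 11.07, 10.57 and 10.96 in the EPO livers, against 10.67, 10.63, 11.43, 10.96 and 10.73 in the vehicle livers and a difference of -0.23 (adjusted p = 0.554). Because the probes of close P450 relatives can share targets, single P450 genes are less certain than the family.

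Of 33 conjugating enzymes 0 passed in limma (4 at an unadjusted p under 0.05), with a median of -0.09, whereas 5 were lower after scaling to one spread. Of 29 drug and bile salt transporters 1 passed (3.45%, against 2.72% of all genes). This was Slc28a1, a nucleoside transporter, which fell by 0.28 (adjusted p = 0.0282). Its call was lost in 5 of the 10 fits that left out 1 array. After scaling, or without EPO array 1, 2 transporters were lower. The bile salt importer Slc10a1 differed by -0.01 (-0.11 to 0.10), the bile salt export pump Abcb11 by 0.05 (-0.12 to 0.22), the organic anion importer Slco1b2 by -0.16 (-0.34 to 0.01), the conjugate exporter Abcc2 by -0.27 (-0.49 to -0.05) and the P-glycoprotein gene Abcb1a by -0.07 (-0.44 to 0.29). None of these 5 passed (adjusted p from 0.153 to 0.955). Ugt1a1, the bilirubin glucuronosyltransferase, was not measured.

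**Figure D4:**
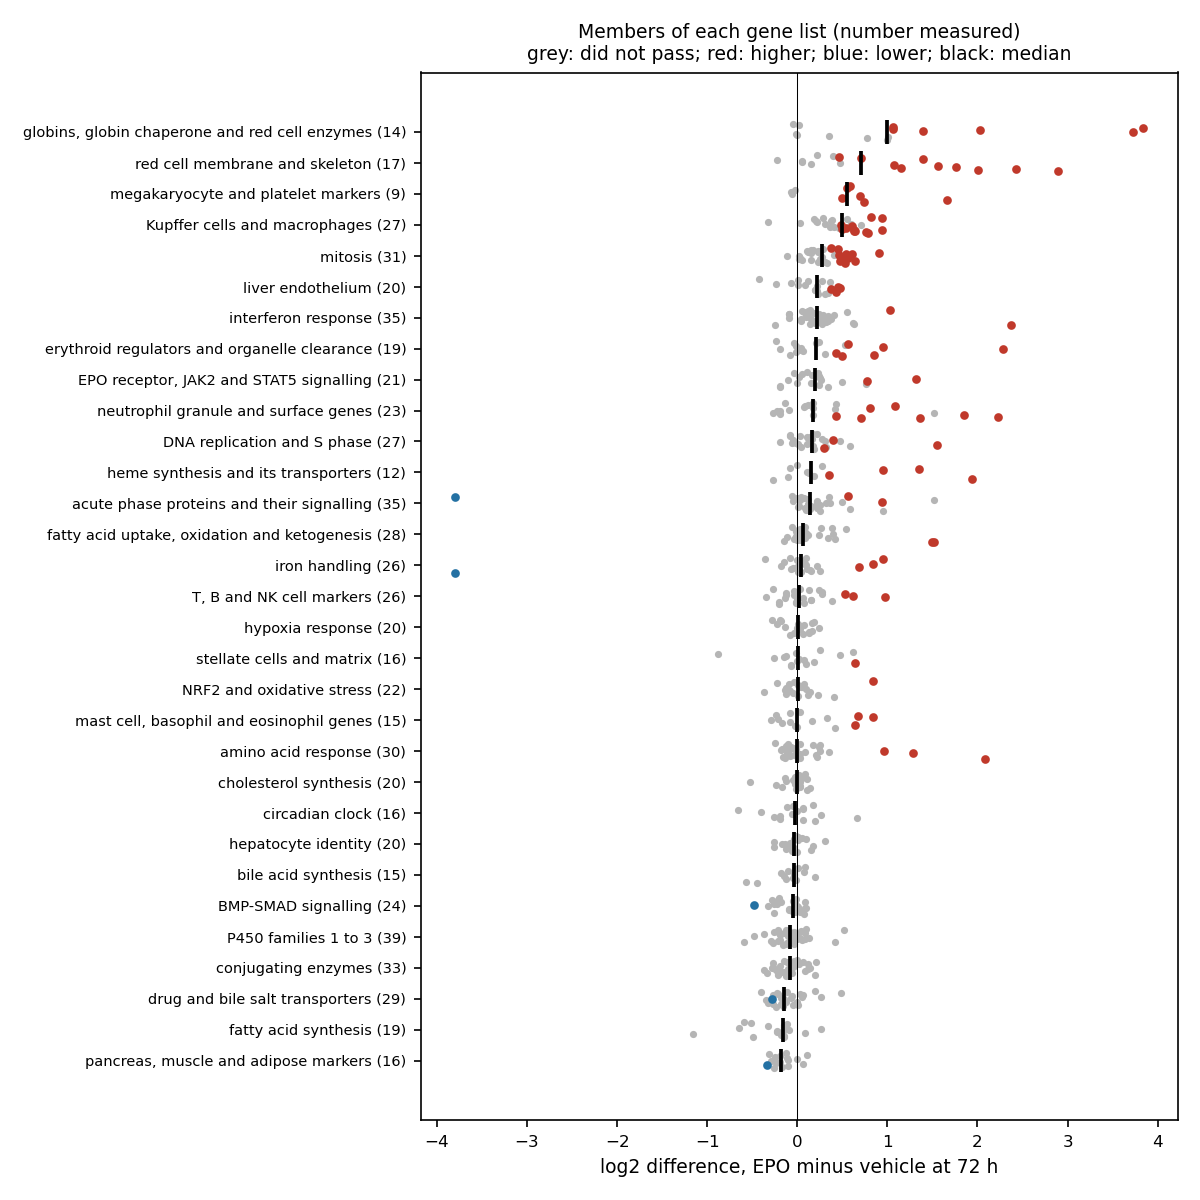
Each point is 1 gene, placed by its log2 difference (EPO minus vehicle at 72 h), in rows for the 31 gene lists ordered by their median (black bar), with the number of measured members in brackets. The red cell membrane, globin, platelet and Kupffer lists have medians of 0.49 to 1.00, whereas drug-metabolism, transporter and fatty acid synthesis lists lie between -0.16 and -0.08.

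Of the acute phase proteins, which hepatocytes secrete in inflammation, and their signalling genes few passed. Of 35 genes 2 rose and Hamp fell (8.57% passed, against 2.72% of all genes). The 2 were Osmr and Lifr, adjacent genes for the receptors of oncostatin M and leukemia inhibitory factor. At an unadjusted p under 0.05, 15 were higher, and the median was 0.14. The number that rose was 5 without EPO array 1, 4 without the narrow arrays, 1 without any one of vehicle arrays 1 to 3 and EPO array 2, and 1 after repeated quantile normalization. Lifr read 10.10, 10.12, 9.82, 10.35 and 10.07 in the EPO livers, against 9.61, 9.28, 9.65, 9.79 and 9.30 in the vehicle livers, without overlap, a difference of 0.57 (SE 0.11, adjusted p = 0.000628). Osmr was 7.16, 9.16, 7.11, 7.60 and 7.65 in the EPO livers, against 6.34, 6.76, 6.43, 6.80 and 7.68 in the vehicle livers. EPO liver 2 stood apart above the rest, vehicle liver 5 lay above 4 EPO livers, and the call (0.94, SE 0.25, adjusted p = 0.0248) was lost without EPO array 2 or any of vehicle arrays 1 to 3. Lcn2, lipocalin 2, read 7.64, 11.14, 7.67, 9.35 and 10.53 in the EPO livers, against 8.16, 7.24, 7.38, 7.36 and 8.59 in the vehicle livers. EPO livers 2, 4 and 5 were high, EPO livers 1 and 3 lay within the vehicle range, and the difference of 1.52 did not pass (adjusted p = 0.125). A2m, alpha-2-macroglobulin, reached 12.10 in EPO liver 5 and 8.12 to 9.66 in the other EPO livers, against 8.35 to 9.05 in vehicle livers, and did not pass (adjusted p = 0.291). C-reactive protein, Crp, differed by 0.00 (-0.10 to 0.11).

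Of 30 amino acid response genes 3 rose (10% passed, against 2.72% of all genes) and the median was -0.01. Asns, asparagine synthetase, read 8.27, 9.46, 9.84, 10.72 and 8.70 in EPO livers 1 to 5, against 7.32, 7.18, 7.70, 7.36 and 7.04 in vehicle livers 1 to 5. It was higher by 2.08 (SE 0.32, adjusted p = 1.77e-05) without overlap, and EPO liver 4 was again the highest and EPO livers 1 and 5 the lowest. Mthfd2, a mitochondrial folate enzyme of dividing cells, was higher by 1.29 (SE 0.17, adjusted p = 1e-06) and Slc7a5, the large neutral amino acid transporter, by 0.97 (SE 0.20, adjusted p = 0.00152). Trib3 and Ddit3, stress-induced targets of the same response, differed by 0.00 and -0.08 and did not pass.

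Of 35 interferon response genes 2 rose (5.71% passed, against 2.72% of all genes). They were Rsad2 (viperin) and Cmpk2 (a mitochondrial nucleotide kinase), which are neighbours in the genome. Rsad2 read 8.73, 9.72, 10.53, 10.71 and 8.77 in EPO livers 1 to 5, against 6.34, 6.78, 8.01, 7.45 and 7.99 in vehicle livers 1 to 5, with no overlap, EPO liver 4 highest and vehicle livers 3 and 5 leading their group, and was higher by 2.38 (SE 0.34, adjusted p = 7.48e-06). Cmpk2 was higher by 1.03 (SE 0.17, adjusted p = 9.49e-05). The list's median was 0.22. Mx1, a classic interferon target, read 7.25, 8.34, 7.71, 8.01 and 7.34 in the EPO livers, against 6.53, 6.58, 6.68, 8.18 and 7.56 in the vehicle livers, with vehicle liver 4 above 4 EPO livers and no call (adjusted p = 0.23), and Isg15 differed by 0.22 (adjusted p = 0.446).

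Of 28 fatty acid uptake and oxidation genes 2 rose (7.14% passed, against 2.72% of all genes). Ucp2, an uncoupling protein of mitochondria, read 9.83, 10.75, 11.16, 11.62 and 10.05 in the EPO livers, against 8.78, 8.59, 9.57, 9.41 and 9.47 in the vehicle livers and was higher by 1.52 (SE 0.23, adjusted p = 1.77e-05). Cd36, a fatty acid translocase also present on macrophages and platelets, read 9.08, 9.39, 9.74, 10.02 and 10.11 in the EPO livers, against 7.50, 7.96, 8.50, 8.09 and 8.79 in the vehicle livers and was higher by 1.499 (SE 0.21, adjusted p = 5.69e-06). Neither gene's groups overlapped. Fatty acid synthesis genes had a median of -0.16, 0 of 19 passed in limma and 5 had an unadjusted p under 0.05. After scaling to one spread 3 were lower, and 1 was lower with only the groups compared. The lowest was Scd, stearoyl-CoA desaturase, at 10.11, 8.41, 11.64, 7.98 and 10.10 in the EPO livers, against 12.21, 11.01, 10.38, 10.59 and 9.84 in the vehicle livers, a difference of -1.16 (adjusted p = 0.246) within a wide spread of both groups. Of 20 cholesterol synthesis, 15 bile acid synthesis, 16 circadian clock and 20 hypoxia response genes 0 passed in limma, with 2, 1, 1 and 2 at an unadjusted p under 0.05. For cholesterol synthesis 1 was lower with array weights, after scaling or without the narrow arrays, and for hypoxia 1 was higher without EPO array 5. In the 22 genes of the NRF2 response Hmox1 alone passed (4.55%).

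Other genes with differences among the highest were Emb, embigin, a chaperone of monocarboxylate transporters (2.67, adjusted p = 1.15e-06), and Cd52, a small surface glycoprotein of leukocytes (1.84, adjusted p = 1.5e-05). Emb read 8.01, 9.47, 10.20, 10.60 and 8.99 in the EPO livers, against 5.80, 5.95, 7.71, 7.01 and 7.45 in the vehicle livers and Cd52 8.05, 9.43, 9.37, 10.03 and 8.22 in the EPO livers, against 6.57, 6.92, 7.52, 7.20 and 7.67 in the vehicle livers. In both genes EPO liver 4 was highest and EPO liver 1 lowest of their group, and no vehicle liver reached an EPO liver.

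Genes that fell were, apart from Hamp, small in size and often dim. Of the 79 lower genes 35 (44.3%) had a mean level under 6, as did 24.4% of all genes tested and 15.5% of the 316 higher ones. In 65 of the 79 (82.3%) the highest vehicle value was that of narrow array 2 or 5, which was so in 51.4% of all genes. Without the narrow arrays 8 of the 79 passed, and the median difference of the 79 was -0.25, against -0.34 with all arrays. The part of signal level in these calls was not tested.

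Cbln3, a secreted cerebellin, read 10.31, 10.26, 10.15, 10.41 and 10.17 in EPO livers 1 to 5, against 11.20, 10.63, 11.05, 10.72 and 10.76 in vehicle livers 1 to 5. All EPO livers lay below every vehicle liver, and it fell by 0.61 (adjusted p = 0.0109), a call lost without vehicle array 1 (adjusted p = 0.0633). Wfdc18, of the whey acidic protein family, read 6.13, 5.75, 5.75, 5.75 and 5.59 in the EPO livers, against 6.44, 6.41, 6.21, 6.13 and 6.41 in the vehicle livers and fell by 0.52 (adjusted p = 0.00242), with EPO liver 1 and vehicle liver 4 at nearly one level. Lin28a, an RNA-binding protein of embryonic cells, fell by 0.51, the olfactory receptor genes Or4a66b, Or2ag2b and Or9i14 by 0.50, 0.43 and 0.43 and the keratin-associated gene Krtap15-1 by 0.43. Of the 10 fits that left out 1 array, the call was lost in 6 for Lin28a, 6 for Or9i14, 5 for Or2ag2b and 3 for Krtap15-1, and that of Or4a66b was lost with array weights, after scaling and without the narrow arrays. Pnlip, pancreatic lipase, was the 1 gene of 16 pancreas, muscle and adipose markers to pass (6.25%, against 2.72% of all genes). It fell by 0.33, a call lost without the narrow arrays, while 3 of the 16 were lower without EPO array 1 or without vehicle array 4. Against sham livers, of the 10 lowest genes Hamp and Id2 passed. Against anakinra livers Hamp, Cbln3, Id2 and Or2ag2b passed, with differences of -3.92, -0.65, -0.57 and -0.41.

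The EPO livers at 72 h were also set against 2 other groups, for the same genes. Against sham livers 502 genes passed (3.46%), 398 higher (2.74%) and 104 lower (0.717%). Against anakinra livers at 72 h 281 passed (1.94%), 252 higher (1.74%) and 29 lower (0.2%). These comparisons share the 5 EPO arrays with the one against vehicle. The Hamp difference was -4.69 against sham, -3.92 against anakinra and -3.80 against vehicle. Alox15 differed by 4.74, 4.29 and 3.84, Mmp8 by 2.395, 2.30 and 2.23, and Csf2rb by 1.45, 1.41 and 1.32, in the same order. The Kupffer gene Vsig4 did not pass against sham (0.40, adjusted p = 0.201) or anakinra (0.39, adjusted p = 0.321), while Cd163 passed against both (0.58 and 0.55).

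How far the difference was particular to 72 h was tested against the EPO-vehicle difference at the other times, whose arrays are all distinct. Against 24 h, 23 of 14506 genes (0.159%) differed, all with the more positive EPO difference at 72 h. Against 7 days, 13 genes (0.0896%) differed, again all more positive at 72 h. Within the other times 4 genes passed at 24 h (0.0276%) and 53 at 7 days (0.365%, with 48 higher, 0.331%, and 5 lower, 0.0345%). The count against 24 h was 94 without EPO array 1 at 72 h and 6 without EPO array 4. The count against 7 days was 6 without EPO array 4.

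Neither Rhag nor Hemgn passed at 24 h. Rhag differed by -0.05, 2.002 and 0.81 at 24 h, 72 h and 7 days, and its 72 h difference exceeded both others (adjusted p = 1.17e-06 against 24 h and 0.0237 against 7 days). Hemgn differed by 0.03, 2.28 and 2.08, with an adjusted p of 0.0195 against 24 h and 0.86 against 7 days. The membrane and skeleton list had medians of 0.05, 0.71 and 0.51 at the 3 times, and 6 of its 17 genes passed the test against 24 h and 1 that against 7 days. Hamp differed by -1.80, -3.80 and -5.66, and neither test between times passed (adjusted p = 0.305 and 0.393). Alox15 differed by 1.72, 3.84 and 4.32, likewise without a call between times.

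For 4 of the 23 neutrophil genes the 72 h difference exceeded that at 7 days. Mmp8 differed by 0.88, 2.23 and 0.22 at the 3 times, and the 72 h difference exceeded that at 24 h (adjusted p = 0.0195) and at 7 days (adjusted p = 2.41e-05). Ngp differed by 0.63, 1.84 and 0.04, S100a9 by 0.37, 1.37 and 0.02 and S100a8 by 0.14, 0.71 and -0.24, each higher at 72 h than at 7 days (adjusted p = 0.000219, 0.0142 and 0.00518). Csf2rb differed by 0.60, 1.32 and 0.22, more at 72 h than at 24 h (adjusted p = 0.0472) and 7 days (adjusted p = 0.000178).

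**Figure D5:**
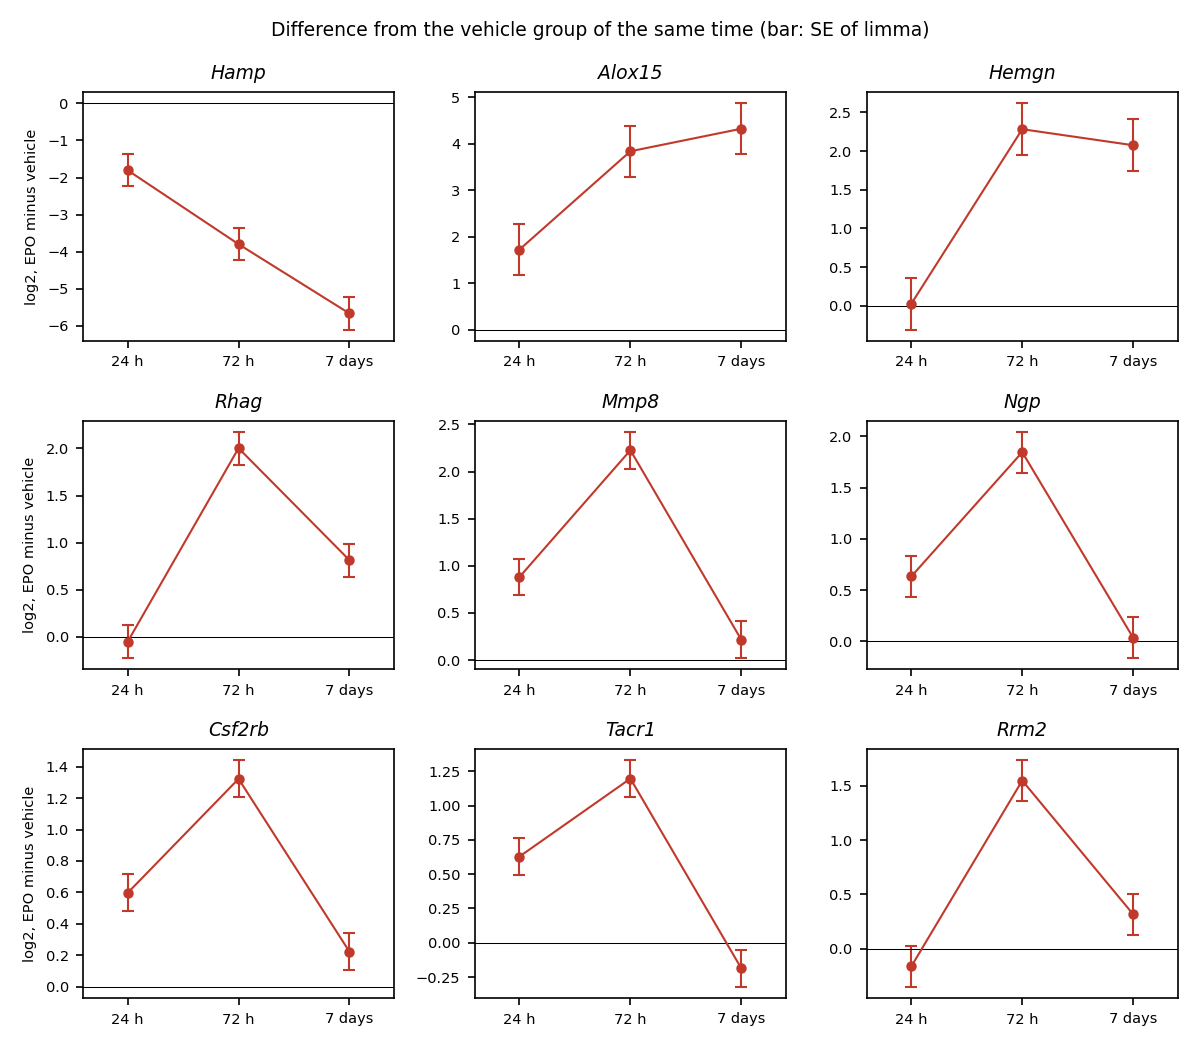
Log2 difference between EPO and vehicle livers (vertical axis) at 24 h, 72 h and 7 days after injury for 9 genes, with limma's SE as bars. The difference of Rhag is near 0 at 24 h (-0.05) and 2.002 at 72 h, those of Mmp8 and Ngp are 0.22 and 0.04 at 7 days, and the Hamp points lie below 0 at all 3 times.

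Tacr1 and Fgf23 were among the 13 genes that differed from 7 days. Tacr1, the substance P receptor, read 7.73, 8.25, 8.03, 8.05 and 7.97 in EPO livers 1 to 5, against 6.46, 6.89, 6.82, 6.83 and 7.05 in vehicle livers 1 to 5. The groups did not overlap, the difference was 1.20 (SE 0.13, adjusted p = 3.06e-08), and it was 0.63 at 24 h and -0.19 at 7 days (adjusted p = 2.41e-05 between 72 h and 7 days). Fgf23, a phosphate-regulating hormone made mainly in bone, read 5.87, 6.25, 7.34, 6.45 and 6.49 in EPO livers 1 to 5, against 5.37, 5.33, 5.19, 5.16 and 5.39 in vehicle livers 1 to 5. EPO liver 3 was the highest at 7.34, no vehicle liver reached an EPO liver, and the difference was 1.19 (SE 0.14, adjusted p = 1.2e-07), with 0.81 at 24 h and -0.06 at 7 days (adjusted p = 0.000364 between 72 h and 7 days). Chi3l1, a chitinase-like protein of neutrophils and macrophages, differed by 0.06, 0.81 and -0.13 (adjusted p = 0.0218 between 72 h and 7 days).

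Rrm2 differed by -0.16, 1.55 and 0.32, more at 72 h than at either other time (adjusted p = 0.000374 and 0.0313). Itgb3 (-0.06, 0.50 and 0.08) and Ppbp (0.37, 1.66 and 0.83) differed more at 72 h than at 24 h (adjusted p = 0.0195 and 0.0195), while their 7-day tests did not pass (0.268 and 0.37). Tinagl1, a matrix protein of the tubulointerstitial nephritis antigen family, differed by -0.01, 1.595 and 0.96 (adjusted p = 0.00593 against 24 h), and Fhdc1, a formin of the actin and microtubule skeleton, by -0.11, 0.95 and 0.81 (0.0129). The Kupffer list had medians of 0.16, 0.49 and 0.13 at the 3 times, and 0 of its genes passed either test between times in limma.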

How the data were processed

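RNA of 50 rat livers was hybridised to Affymetrix Rat Gene 1.0 ST arrays. The authors deposited log2 values from RMA (robust multi-array averaging) with oligo, per the submitters' processing notes, with versions not given in the sources used here. RMA subtracts background, quantile-normalises the arrays and summarises probes, so the arrays share nearly one distribution and a global shift cannot be seen. There are no counts or detection calls, and the number of arrays limits the precision.

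Of 29214 probe sets 15310 carried a single symbol in the platform annotation, and the one with the highest mean was kept per gene (14506 genes, 527 with several, with no filter on level). Genomic positions of the probes were not used. The tests used limma 3.58.1 (R 4.3.3, lmFit and eBayes, two-sided, 1 mean per group over all 50 arrays, 40 residual degrees of freedom), adjusted by Benjamini-Hochberg over all genes, with a threshold of 0.05. Arrays are separate animals per the labels. Differences between times were tested as contrasts of contrasts. The procedure was tested on simulated data with known changes. The simulated noise was independent between genes and arrays. It could therefore not show how single arrays or differing array spreads move the calls.

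Genes were named by a rule: the 15 highest and 10 lowest that passed, up to 4 members of each of 31 lists (704 of 828 entries measured), 29 given genes (27 measured) and up to 8 per test between times. Other genes named with values (among them Hbb, Hba-a3, Smad7, Socs2, Fth1, Tf, Car1, Bpgm, Sptb, Add2, Pf4, Gp9, Retnlg, Cxcr2, Mpo, Elane, Ltf, Cd3e, Lcn2, A2m, Crp, Trib3, Ddit3, Mx1, Isg15 and Scd) were chosen after their values were seen. The comparison, the members and the lists were chosen with earlier results of these data known. Promoter sequences are those of RefSeq (GRCr8), and gene neighbours come from the same annotation. Alternatives were only the groups compared, array weights, eBayes trend and robust options, a mean level of at least 6, the mean of all probe sets, scaling to one spread, quantile normalization again, leaving out the narrow arrays or each array, and a replicate block.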

Additional observations from a re-analysis of the deposited data

Results flagged for a closer look

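In 9 of 198 sets of 5 values (named genes in the EPO or the vehicle livers at 72 h) 1 array lay far from the other 4. Chance flags about 1 in 20 sets, or 9.9 of 198. EPO liver 2 was high for Nkg7 (8.65, others 7.94 to 8.10) and Osmr (9.16, others 7.11 to 7.65) and low for Cyp3a23-3a1 (11.3, others 11.88 to 12.11). EPO liver 5 was high for Kif11 (6.62, others 5.93 to 6.10), and so was vehicle liver 5 (5.96, others 5.57 to 5.66). EPO liver 4 was low for Slco1b2 (11.99, others 12.33 to 12.43). Vehicle liver 2 was low for Fech (8.76, others 9.21 to 9.29) and Ncoa4 (9.96, others 10.46 to 10.64), and vehicle liver 5 was high for Or2ag2b (5.64, others 5.09 to 5.23).

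The EPO-vehicle difference of 16 named genes was larger at 72 h than at 24 h by limma's test of the difference between times. The excess at 72 h was 2.26 for Hemgn, 2.15 for Car2, 2.05 for Rhag, 1.89 for Cd52, 1.71 for Rrm2, 1.62 for Epb42 and 1.604 for Tinagl1. It was 1.35 for Mmp8, 1.29 for Ppbp, 1.19 for Mthfd2, 1.18 for Slc25a37, 1.11 for Ank1, 1.06 for Fhdc1 and 1.04 for Epb41. For Csf2rb it was 0.73 and for Itgb3 0.56. Adjusted p-values of limma ran from 1.17e-06 (Rhag) to 0.0472 (Csf2rb).

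In 10 named genes the difference was larger at 72 h than at 7 days. The excess was 2.01 for Mmp8, 1.81 for Ngp, 1.38 for Tacr1, 1.35 for S100a9, 1.26 for Fgf23, 1.23 for Rrm2, 1.19 for Rhag, 1.1 for Csf2rb, 0.95 for S100a8 and 0.94 for Chi3l1. Adjusted p-values of limma ran from 2.41e-05 (Mmp8 and Tacr1) to 0.0313 (Rrm2).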

How the results depend on the processing

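No named gene that passed had its sign turned under the alternatives run, but the counts moved, and the cause was not tested. Counts of higher, lower and at least 1.5-fold changed genes, and of genes that differed from 24 h and from 7 days, were 316, 79, 156, 23 and 13. With only the groups compared in the fit they were 50, 3, 51, 2 and 4. Lower genes numbered 33 with array weights, 50 with a mean level of at least 6, 143 after scaling to one spread and 17 without the narrow arrays. Genes that differed from 24 h numbered 78 with array weights and 13 after scaling, and those that differed from 7 days 7 with a mean level of at least 6 and 6 without the narrow arrays. Leaving out 1 array in turn gave 194 (vehicle 2) to 568 (EPO 1) higher and 11 (vehicle 2) to 952 (EPO 1) lower genes. It gave 115 to 237 (EPO 1) genes changed at least 1.5-fold, 6 (EPO 4) to 94 (EPO 1) that differed from 24 h and 6 (EPO 4) to 18 (EPO 1) that differed from 7 days. The number of lower genes was also moved over 1.5 times by vehicle 1 (41), 3 (184), 4 (366) and 5 (29) and EPO 2 (30), 3 (25), 4 (45) and 5 (29). The count against 24 h was moved so by the 72 h arrays vehicle 1 (7), 2 (10) and 5 (44) and EPO 2 (12), 3 (11) and 5 (44), and by the 24 h arrays vehicle 2 (14) and 3 (15) and EPO 2 (12). The count against 7 days was moved so by vehicle 1 and 2 at 72 h (8 each) and EPO 3 at 7 days (7). The share of higher calls was 90.2% with array weights and 94.3% with only the groups compared.

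The labels number the replicates 1 to 5 in each group but name no shared litter or batch. Same-numbered EPO and vehicle arrays had deviations that correlated at -0.08 to 0.43, differently numbered ones at -0.49 to 0.46, and 2 of the 5 EPO arrays correlated best with their own number, so the numbers were not taken as pairs. With the replicate number as a block, in the groups compared, the counts were 105 higher, 4 lower, 100 at least 1.5-fold, 2 against 24 h and 2 against 7 days.

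Of 99 named genes 81 passed and 58 of these passed whichever array was left out. Without the narrow arrays 66 of the 81 passed, after scaling 68, with array weights 68, after quantile normalization 74 and in the fit of only the groups compared 35. Dim genes are limited by the low signal.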
